A study of Bos taurus with 36 samples.

Results

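The 10 genes described here carry the retinoic acid pathway in bovine fetal organs and maternal blood: the retinol carrier RBP4 (Entrez 281444) and its receptor STRA6 (515911), the retinaldehyde dehydrogenases ALDH1A1 (281615), ALDH1A2 (535075) and ALDH1A3 (507093), the binding protein CRABP1 (282201), and the nuclear receptors RARA (534280), RARB (616895), RARG (540425) and RXRA (507554). They were chosen by gene symbol, as the rows of the count table whose Entrez identifier carries one of these symbols in bovine RefSeq, and all 10 were found among 35092 genes. RNA was measured in the heart, gonads and liver of 10 male fetuses on Day 42 of gestation and in the blood of the heifers that carried them. Each heifer had received a Day 7 embryo, either on Day 7 of her cycle (ET_D7, synchronous) or on Day 9 (ET_D9, asynchronous, a transfer used to stimulate fetal growth). Fetal organs and blood were prepared with different stranded library kits, and levels in blood are therefore not set against those in the organs. Fetuses are numbered by weight, from fetus 1 (1.253 g) to fetus 10 (1.69 g). Fetuses 1 to 5 were ET_D7 and weighed at most 1.37 g, and fetuses 6 to 10 were ET_D9 and weighed at least 1.396 g, so weight and transfer group cannot be told apart.

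Retinoic acid is made from vitamin A. Retinol travels in plasma bound to RBP4, enters some cells through STRA6, is oxidized to retinaldehyde and then, by the ALDH1A enzymes, to retinoic acid, which CRABP proteins bind in the cytoplasm and CYP26 enzymes degrade. Retinoic acid acts through RAR and RXR dimers on DNA, and is known for its part in patterning of the heart, in the development of the kidney and the gonad, and in the storage of vitamin A by the liver.

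There were 9 heart libraries (none of fetus 7), 9 libraries labelled gonads (none of fetus 2), 8 liver libraries (none of fetuses 6 and 7) and 10 blood libraries, and each library is a separate fetus or heifer within its tissue. Total counts ran from 18231089 to 40812354 per library. The share of counts from mitochondrially encoded genes ran from 17.1% to 57.3% over heart libraries, 16.3% to 36.8% over liver libraries and 3.31% to 7.23% over the libraries labelled gonads. Levels are given as CPM, the count scaled to the size of the library after TMM scaling, which corrects totals for differences in composition between libraries. A gene's CPM is compared between libraries and not with that of another gene, since transcript length was not used. Cardiomyocyte genes marked the heart (23835 to 34467 CPM summed over 6 genes), hepatocyte genes the liver (29466 to 54924 CPM over 5 genes) and leukocyte genes the blood (4401 to 5449 CPM over 4 genes).

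The label of the gonads was not borne out by its markers. GATA4, a transcription factor of the genital ridge, was at 0.0524 ± 0.0460 CPM (SD, n = 9), DMRT1 at 0.110 ± 0.0930 CPM and NR5A1 at 0.700 ± 0.281 CPM in the libraries labelled gonads. PAX2, a gene of the kidney primordia, was at 114 ± 11.7 CPM there, and SIX2, which marks nephron progenitors, at 38.8 ± 10.9 CPM. The 10 listed genes of the mesonephros and metanephros summed to 389 to 519 CPM in these libraries, against 13.7 to 22.2 CPM in the heart and 71.9 to 112 CPM in the liver. By the test described below, 8 of the 10 were higher in these libraries than in the liver, and 2, CUBN and LRP2, were lower. The shares of all genes in these directions were 30.8% and 33.6%. The 4 germ cell genes summed to 0.201 to 1.43 CPM, the 4 steroidogenic genes to 5.47 to 13.7 CPM and the 7 Sertoli cell genes, with SOX9 and AMH among them, to 4.15 to 15.4 CPM. In the heart these lists summed to 0.430 to 3.70, 8.77 to 20.5 and 220 to 389 CPM. In the liver they summed to 0 to 61.3, 18.1 to 29.9 and 56.1 to 86.5 CPM. None of these lists is therefore particular to the gonad in these data. Values under the name gonads below are those of the libraries so labelled.

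The first comparison asked how the levels of these genes differ between the organs. RBP4 and RXRA were highest in the liver, while ALDH1A2 (at the threshold), RARB, STRA6 and CRABP1 were highest in the gonads. RARA was highest in the heart, under some settings only. By edgeR's quasi-likelihood test on all 26 organ libraries, with p-values adjusted over 25095 genes, 9 of the 10 genes differed between heart and liver (5 higher in the heart, 4 lower), where 58.6% of all genes did (27.9% higher, 30.7% lower). Between gonads and liver 9 of 10 differed (5 higher in the gonads, 4 lower), beside 64.4% of all genes (30.8% higher, 33.6% lower). Between heart and gonads 8 of 10 differed (3 higher in the heart, 5 lower), beside 46.6% of all genes (23.5% higher, 23.1% lower). Counting a gene as highest in an organ when it exceeded both others at an adjusted p-value under 0.05, 4 of the 10 were gonad-highest, 3 liver-highest and 1 heart-highest, where the shares of all genes were 14.9%, 23.1% and 11.1%. ALDH1A2 was gonad-highest under 4 of 10 alternative settings and RARA heart-highest under 5 of 10. With the fetus as a block, which pairs organs of the same fetus, ALDH1A2, ALDH1A3 and RARA were highest in no organ. The median log2 fold change over the 10 genes was -0.22 for heart against liver, 1.13 for gonads against liver and -0.39 for heart against gonads, and over all genes it was 0, 0 and -0.08. In tissue samples, fewer cells of a type and less RNA per cell cannot be told apart.

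**Figure D1:**
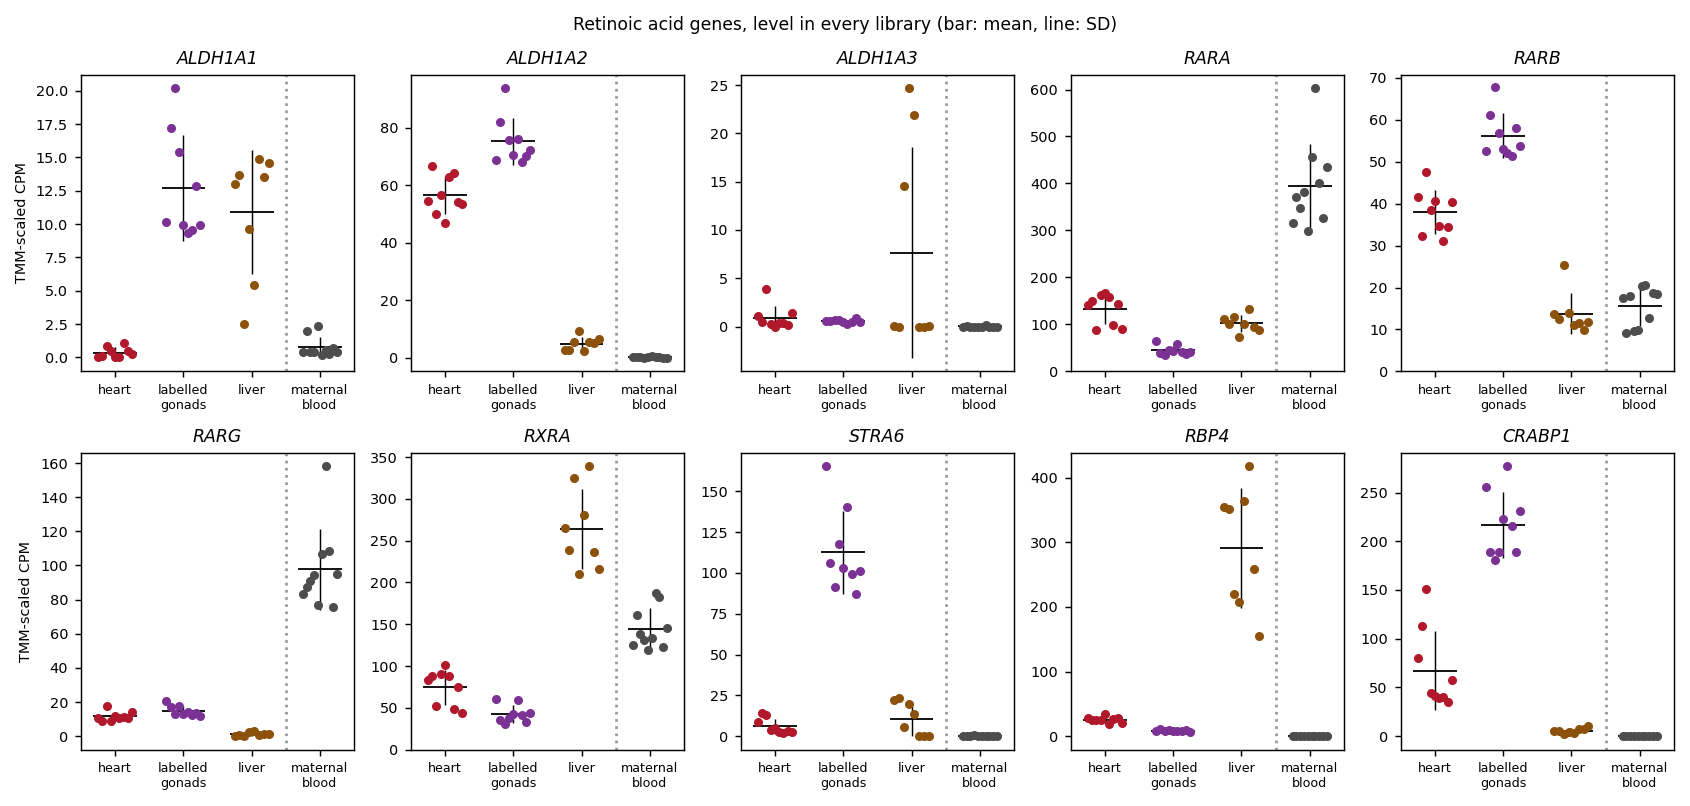
Level of the 10 genes in every library, in TMM-scaled CPM on a linear vertical axis, with 1 panel per gene and 1 point per fetus or heifer, in order of fetal weight within each tissue. Horizontal bars are means and vertical lines SD, and the dotted line parts blood, which was scaled on its own, from the organs. RBP4 stands out in the liver at 155 to 417 CPM and CRABP1 in the libraries labelled gonads at 181 to 277 CPM.

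RBP4 encodes the protein that carries retinol from the liver through the plasma. In the liver it was at 354, 351, 220, 207, 364, 417, 259 and 155 CPM in fetuses 1, 2, 3, 4, 5, 8, 9 and 10. In the heart it ran from 19.2 to 34.4 CPM (median 25.3) and in the gonads from 6.94 to 11.3 CPM (median 7.59). No library of 1 organ overlapped with those of another. RBP4 was lower in the heart than in the liver by a log2 fold change of -3.51 (SE 0.17, adjusted p = 2.74e-16, edgeR), and lower in the gonads than in the liver by -5.10 (SE 0.19, adjusted p = 3.07e-19, edgeR). In maternal blood it was at 0 in 7 of 10 libraries and at most 0.151 CPM in the others.

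STRA6 encodes the membrane receptor through which cells take up retinol from RBP4. In the gonads it was at 165 CPM in fetus 1 and at 106, 91.5, 118, 103, 141, 99.7, 87.4 and 101 CPM in fetuses 3 to 10. Every one of these libraries was above every heart and liver library. In the heart it was at 8.37, 14.2, 12.6, 3.72, 4.77 and 2.71 CPM in fetuses 1 to 6, and at 1.99, 3.03 and 2.52 CPM in fetuses 8, 9 and 10. In the liver it was at 21.9, 23.5, 5.42, 19.8 and 13.4 CPM in fetuses 1 to 5, and at 0.0422, 0 and 0.0654 CPM in fetuses 8, 9 and 10. The liver was thus split, with its 3 heaviest fetuses near 0, and it overlapped with the heart. STRA6 was higher in the gonads than in the liver by a log2 fold change of 3.42 (SE 0.72, adjusted p = 0.000151, edgeR) and lower in the heart than in the gonads by -4.24 (SE 0.71, adjusted p = 1.31e-05, edgeR). Heart and liver were not distinguished over all libraries (-0.82, SE 0.66, adjusted p = 0.295, edgeR), and without the liver libraries of fetuses 8 to 10 STRA6 was lower in the heart (-1.49, adjusted p = 0.00185, edgeR). In blood it was at 0 in 8 of 10 libraries.

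The ALDH1A enzymes make the last step to retinoic acid. ALDH1A2, the main such enzyme of the early embryo, was at 46.8 to 66.7 CPM in heart libraries (median 54.4), 68.3 to 93.9 CPM in gonad libraries (median 72.3) and 2.31 to 9.24 CPM in liver libraries (median 5.36). The 3 organs did not overlap. It was higher in the heart than in the liver by a log2 fold change of 3.51 (SE 0.20, adjusted p = 8.48e-15, edgeR) and higher in the gonads than in the liver by 3.93 (SE 0.21, adjusted p = 1e-15, edgeR). Its difference between heart and gonads was -0.41 (SE 0.17, adjusted p = 0.0499, edgeR), and with the fetus as a block, which pairs organs of the same fetus, -0.39 (adjusted p = 0.0944, edgeR). This call was lost under 6 of 10 alternative settings, and with counts scaled to library totals alone the difference was -1.47 (adjusted p = 5.88e-08, edgeR). Genes of the epicardium and mesothelium, in which ALDH1A2 is also known to be active, summed to 181 to 271 CPM in the heart, 282 to 346 CPM in the gonads and 33.6 to 86.3 CPM in the liver, and their part in the level of ALDH1A2 was not tested.

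ALDH1A1, a second enzyme of this family, had another distribution. It was at 0 to 1.12 CPM in the heart (median 0.265), at 9.33 to 20.2 CPM in the gonads (median 10.1), and at 13, 13.7, 2.53, 9.66, 5.41, 14.9, 13.6 and 14.6 CPM in the livers of fetuses 1, 2, 3, 4, 5, 8, 9 and 10. All heart libraries were below all libraries of the other organs, while gonads and liver overlapped. The log2 fold change of the heart was -4.81 against the liver (SE 0.58, adjusted p = 3.35e-08, edgeR) and -5.03 against the gonads (SE 0.57, adjusted p = 2.47e-08, edgeR). Gonads and liver differed by 0.22, with a 95% interval from -0.73 to 1.18 (adjusted p = 0.704, edgeR).

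ALDH1A3, the third enzyme, was detected at more than 4 CPM in 3 libraries alone, all of liver. These were fetuses 3, 4 and 5 with 247, 350 and 672 counts (14.5, 24.7 and 21.9 CPM), whereas fetuses 1, 2, 8, 9 and 10 had 1, 0, 0, 0 and 1 counts. The heart was at 0 to 3.88 CPM (median 0.384) and the gonads at 0.222 to 0.933 CPM (median 0.551), so the liver overlapped with both. ALDH1A3 was called lower than in the liver in the heart (log2 fold change -3.07, SE 1.10, adjusted p = 0.0186, edgeR) and in the gonads (-3.79, SE 1.13, adjusted p = 0.00473, edgeR). Both calls were lost with the fetus as a block, at -0.99 (adjusted p = 0.693, edgeR) and -1.35 (adjusted p = 0.583, edgeR). The mean of the liver, 7.66 ± 10.9 CPM (SD, n = 8), describes no library.

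CRABP1 encodes a cytoplasmic protein that binds retinoic acid. In the gonads it was at 181 to 277 CPM (median 216). In the heart it was at 80.5, 113 and 151 CPM in fetuses 1, 2 and 3, at 44.7, 41.6 and 38.7 CPM in fetuses 4, 5 and 6, and at 40.6, 35.1 and 57.5 CPM in fetuses 8, 9 and 10. In the liver it was at 5.33, 4.98, 2.06, 4.09 and 3.26 CPM in fetuses 1 to 5, and at 7.72, 7.51 and 10.0 CPM in fetuses 8, 9 and 10. The organs did not overlap. CRABP1 was higher in the heart than in the liver by a log2 fold change of 3.58 (SE 0.31, adjusted p = 8.05e-11, edgeR), higher in the gonads than in the liver by 5.27 (SE 0.34, adjusted p = 9.4e-14, edgeR), and lower in the heart than in the gonads by -1.69 (SE 0.27, adjusted p = 7.39e-06, edgeR).

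The RAR genes encode the receptors that bind retinoic acid. RARA was at 88.4 to 166 CPM in heart libraries (median 143), 34.8 to 63.8 CPM in gonad libraries (median 41.4) and 73.8 to 133 CPM in liver libraries (median 101). The gonads were below every library of the heart and liver, and heart and liver overlapped. The log2 fold change of heart against gonads was 1.57 (SE 0.15, adjusted p = 6.37e-10, edgeR). That of gonads against liver was -1.19 (SE 0.15, adjusted p = 7.41e-08, edgeR), and with counts scaled to library totals alone it was -0.16 (adjusted p = 0.275, edgeR). Heart and liver differed by 0.38 (SE 0.15, adjusted p = 0.0302, edgeR), a call lost with the fetus as a block (0.35, adjusted p = 0.0629, edgeR) and with DESeq2 size factors (0.22, adjusted p = 0.204, edgeR). This call was also lost with the DESeq2 test, and it held under 5 of 10 alternative settings.

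RARB, a receptor gene that is itself switched on by retinoic acid in many cells, was at 31.2 to 47.6 CPM in heart libraries (median 38.5), 51.3 to 67.9 CPM in gonad libraries (median 53.7) and 9.76 to 25.3 CPM in liver libraries (median 12.2). The 3 organs did not overlap, and the gonads varied least, with an SD of 9.66% of the mean. It was higher in the gonads than in the liver by a log2 fold change of 2.04 (SE 0.14, adjusted p = 6.95e-13, edgeR), higher in the heart than in the liver by 1.47 (SE 0.14, adjusted p = 5.1e-10, edgeR), and lower in the heart than in the gonads by -0.57 (SE 0.13, adjusted p = 0.000753, edgeR). ALDH1A2, CRABP1 and RARB had the same order of medians, gonads above heart above liver, with the limit on ALDH1A2 given above.

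RARG was at 8.61 to 17.5 CPM in heart libraries (median 10.9), 11.9 to 20.9 CPM in gonad libraries (median 13.5) and 0 to 2.90 CPM in liver libraries (median 0.796). It was higher in the heart than in the liver by a log2 fold change of 3.41 (SE 0.44, adjusted p = 1.28e-07, edgeR) and in the gonads by 3.77 (SE 0.45, adjusted p = 2.27e-08, edgeR). Heart and gonads overlapped and differed by -0.36, with a 95% interval from -1.09 to 0.37 (adjusted p = 0.452, edgeR). With counts scaled to library totals alone this difference was called, at -1.35 (adjusted p = 0.00587, edgeR).

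RXRA encodes the partner with which RARs and several other nuclear receptors dimerize. It was at 265, 239, 324, 210, 281, 340, 237 and 216 CPM in the livers of fetuses 1, 2, 3, 4, 5, 8, 9 and 10, at 44.0 to 101 CPM in the heart (median 83.2) and at 30.4 to 61.2 CPM in the gonads (median 41.2). All liver libraries were above all others, and heart and gonads overlapped. The log2 fold change was -1.82 for heart against liver (SE 0.17, adjusted p = 3.12e-10, edgeR) and -2.62 for gonads against liver (SE 0.18, adjusted p = 2.17e-13, edgeR). Heart against gonads was 0.80 (SE 0.16, adjusted p = 0.000189, edgeR), but it turned to -0.32 (adjusted p = 0.0424, edgeR) with counts scaled to library totals alone, a scaling that set the median of all genes at -1.07 for this comparison. RXRA and RARA were both lowest in the hearts of fetuses 3, 8 and 10, RXRA at 44.0 to 52.4 CPM and RARA at 88.4 to 98.4 CPM. These 3 libraries also had the lowest shares of mitochondrially encoded counts, at 23.5%, 25.5% and 17.1%, and the part of that share in the level of either receptor was not tested.

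**Figure D2:**
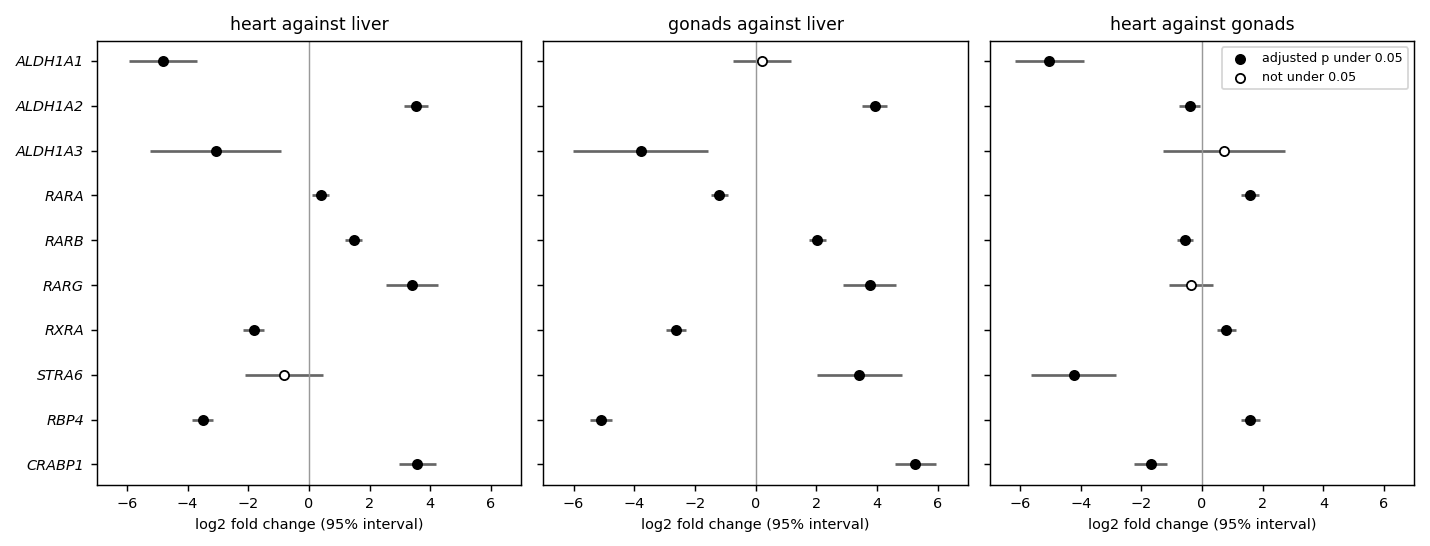
Log2 fold change of the 10 genes between organs, with 95% intervals, from edgeR's quasi-likelihood test on all 26 organ libraries. Filled points have an adjusted p-value under 0.05 (9, 9 and 8 of the 10 genes from left to right). The intervals of ALDH1A3 and STRA6 are the widest.

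Maternal blood held the receptor genes and little else of the set. RARA was at 299 to 603 CPM (median 376), RXRA at 119 to 187 CPM (median 136), RARG at 75.5 to 158 CPM (median 92.7) and RARB at 9.20 to 20.5 CPM (median 17.7). ALDH1A1 was at 0.201 to 2.32 CPM. ALDH1A2 did not exceed 0.705 CPM, and CRABP1, RBP4 and ALDH1A3 did not exceed 0.152 CPM in any blood library. A count of 3 in a library, the most that a count of 0 allows, is worth 0.0693 to 0.113 CPM in blood, so levels of this size lie near the limit of detection, and this limit covers counting error only.

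The rest of the pathway was taken from a list of 47 genes in 5 roles, of which 46 had a count in the organs. NRIP1, a corepressor, had 0 counts in every library. Between heart and liver 33 of the 46 differed (19 higher in the heart, 14 lower), between gonads and liver 31 (20 higher in the gonads, 11 lower) and between heart and gonads 33 (15 higher in the heart, 18 lower). These are 71.7%, 67.4% and 71.7% of the 46, beside 58.6%, 64.4% and 46.6% of all genes. Of the 46, the gonads were the highest organ for 11, the liver for 8 and the heart for 7, where the shares of all genes were 14.9%, 23.1% and 11.1%.

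Among 7 genes of carriers and storage, 5 were lower in the heart than in the liver and 0 higher. Against the liver 5 were lower in the gonads and 1 higher, and against the gonads 4 were lower in the heart and 2 higher. The shares of all genes in these directions were 30.7% and 27.9%, 33.6% and 30.8%, and 23.1% and 23.5%. TTR, transthyretin, which travels with RBP4 in plasma, was at 958 ± 274 CPM in the liver (SD, n = 8) and at most 1.18 CPM in any heart or gonad library. LRP2, the megalin receptor that recovers RBP4 in epithelia, was at 46.1 ± 6.61 CPM in the liver, 8.56 ± 2.90 CPM in the gonads and 1.45 ± 0.623 CPM in the heart.

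Among 12 retinol and retinaldehyde enzymes, 7 were higher and 2 lower in the heart than in the liver. Against the liver 8 were higher in the gonads and 1 lower, and against the gonads 3 were higher in the heart and 4 lower. The shares of all genes in these directions were 27.9% and 30.7%, 30.8% and 33.6%, and 23.5% and 23.1%. RDH10, which makes the retinaldehyde on which the ALDH1A enzymes act, was at 21.1 ± 8.69 CPM in the gonads (SD, n = 9), 3.05 ± 1.61 CPM in the heart and 4.99 CPM in the liver. It was higher in the gonads than in the liver by a log2 fold change of 2.08 (SE 0.34, adjusted p = 5.8e-06, edgeR). DHRS3, which turns retinaldehyde back to retinol, was highest in the heart at 208 ± 49.7 CPM, against 70.8 ± 14.3 CPM in the gonads and 47.3 ± 12.6 CPM in the liver. DHRS4 was highest in the liver at 179 ± 48.2 CPM, against 16.6 ± 1.93 CPM in the heart. ADH5 was at 72.6 ± 19.9 CPM in hearts, 61.0 ± 7.33 CPM in gonads and 28.6 ± 6.85 CPM in the liver.

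Between heart and liver, gonads and liver, and heart and gonads, 58.6%, 64.4% and 46.6% of all genes were called. Of the 5 genes of degradation and cytoplasmic binding, 1 was called in each comparison, CRABP2, a binding protein related to CRABP1. It was at 113 ± 50.4 CPM in hearts, 74.7 ± 12.6 CPM in gonads and 28.6 ± 8.72 CPM in the liver. CYP26A1 and CYP26C1, which degrade retinoic acid, did not exceed 0.949 CPM in any organ library. CYP26B1, the third such enzyme, was at 5.33 ± 2.83 CPM in the heart and 12.2 ± 1.62 CPM in the gonads, and was split in the liver as described below. FABP5, another retinoic acid binder, was at 22.0 ± 4.12 CPM in hearts, 15.8 ± 12.4 CPM in gonads and 17.5 ± 7.66 CPM in the liver, and was not called.

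Of 8 receptor partners and coregulators with counts, 3 were higher and 3 lower in the heart than in the liver. Against the liver 2 were higher in the gonads and 2 lower, and against the gonads 4 were higher in the heart and 3 lower. The shares of all genes in these directions were 27.9% and 30.7%, 30.8% and 33.6%, and 23.5% and 23.1%. The corepressor NCOR1 was at 291 ± 85.5 CPM in the liver, 144 ± 16.2 CPM in the heart and 111 ± 9.81 CPM in the gonads. The coactivator NCOA1 was at 69.6 ± 13.9 CPM in the heart, 56.8 ± 15.7 CPM in the liver and 34.9 ± 6.96 CPM in the gonads.

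Of 14 genes known to respond to retinoic acid in other systems, 8 were higher and 3 lower in the gonads than in the liver, 8 were higher and 4 lower in the heart than in the liver, and 5 were higher and 7 lower in the heart than in the gonads. The shares of all genes in these directions were 30.8% and 33.6%, 27.9% and 30.7%, and 23.5% and 23.1%. The orphan receptor genes NR2F1 and NR2F2 were at 481 ± 146 and 354 ± 61.9 CPM in the gonads (SD, n = 9), against 26 ± 7.61 and 57.3 ± 14.2 CPM in the liver. RARRES2, which encodes chemerin, was at 674 ± 99.3 CPM in the liver, 73.9 ± 8.82 CPM in the heart and 33.6 ± 9.20 CPM in the gonads. The highest organ thus differed between members of this list.

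The second comparison asked whether levels varied between fetuses with their weight, within each tissue. STRA6 in the liver was called, and no other of the 10 genes was in any tissue. A gene was tested in a tissue if 4 or more of its libraries held 10 or more counts, again by edgeR's quasi-likelihood test, and this kept 9 of the 10 genes for the heart, all 10 for the gonads, 9 for the liver and 5 for blood. On a linear term for weight, 0 of 9 heart, 0 of 10 gonad, 1 of 9 liver and 0 of 5 blood tests gave a call, where 6.78%, 0%, 2.23% and 0% of all genes were. An unadjusted p-value under 0.05 was found for 2 of 9, 1 of 10, 2 of 9 and 0 of 5 genes, beside 29.1%, 5.62%, 17.2% and 9.69% of all genes. On a smooth curve of weight (spline with 3 degrees of freedom) STRA6 in the liver was again the 1 gene called, with 0%, 0%, 1.81% and 0.129% of all genes called in the 4 tissues. On the smooth curve an unadjusted p-value under 0.05 was found for 1 of 9, 0 of 10, 2 of 9 and 1 of 5 genes, beside 7.99%, 12.6%, 17.9% and 9.77% of all genes.

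**Figure D3:**
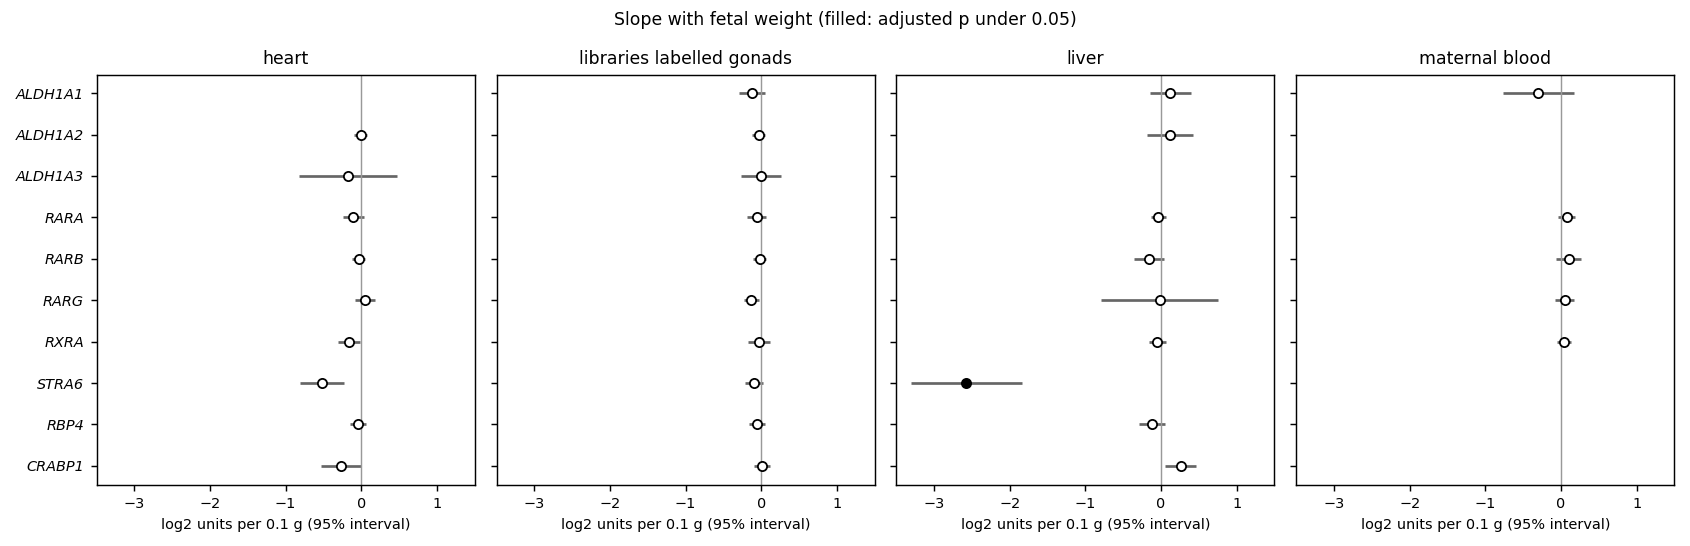
Slope of each gene with fetal weight within each tissue, in log2 units per 0.1 g with 95% intervals, from edgeR's quasi-likelihood test. Genes too low to be tested in a tissue have no point. The filled point is STRA6 in the liver, at -2.58 per 0.1 g.

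The third comparison was between the transfer groups, ET_D9 against ET_D7. Here again 1 gene in 1 tissue was called, STRA6 in the liver, with 0 of 9, 0 of 10, 1 of 9 and 0 of 5 genes in the 4 tissues in the order above. Of all genes, 0.0492%, 0.354%, 4.14% and 0% were called in these tissues. There were 3 ET_D9 livers, so a liver gene reached 10 counts in 4 libraries only with ET_D7 livers among them. A gene with counts in ET_D9 livers alone was therefore not tested, here or along weight. STRA6 passed through its ET_D7 livers alone. Of the 688 liver genes called between transfer groups, 84 were higher in ET_D9. An unadjusted p-value under 0.05 was found for 2 of 9, 2 of 10, 2 of 9 and 3 of 5 genes, beside 24.6%, 18.5%, 17.4% and 7.6% of all genes. Values of the groups did not overlap for STRA6 in the heart, STRA6 in the liver and CRABP1 in the liver, and overlapped for the 10 genes otherwise. These were 1 of the 9 genes tested in the heart and 2 of the 9 in the liver, and the groups did not overlap for 9.74% and 14.2% of all genes tested there.

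In the liver, STRA6 had 411, 506, 92, 280 and 411 counts in the 5 ET_D7 fetuses and 1, 0 and 1 counts in the 3 ET_D9 fetuses. Summed and scaled to depth, the level in ET_D7 was 491 times that in ET_D9 (exact 95% interval 136 to 4058, for counting error only). The slope with weight was -2.58 per 0.1 g on the log2 scale (SE 0.38, adjusted p = 0.0136, edgeR), the smooth curve gave an adjusted p = 0.00412 (edgeR), and the difference between transfer groups an adjusted p = 0.000183 (edgeR). Without fetus 9 or fetus 10 the slope missed the threshold, at -2.40 (adjusted p = 0.0943, edgeR) and -2.77 (adjusted p = 0.0693, edgeR). The share of all liver genes called along weight went from 2.23% to 0.155% and 0.292%. With the transfer group as a covariate the slope of STRA6 was -0.58 (adjusted p = 0.794, edgeR). That model called 0 of 16605 liver genes, and the ET_D9 livers at 0 or 1 counts could show no slope. It therefore cannot decide whether STRA6 had a slope within groups. The slopes of STRA6 differed between the 3 organs (adjusted p = 0.000208, edgeR), a test that called 6.2% of all genes and none of the other 9. With heart and gonads alone the adjusted p was 0.334 (edgeR), in a test that called 0.0108% of all genes.

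Such a step down to at most 2 counts was not particular to STRA6. In the liver, 983 genes dropped to 2 counts or fewer in some fetuses while every other fetus had 50 or more, and 40 heart, 46 gonad and 20 blood genes did the same. Of these, 169 had the pattern of STRA6, low in fetuses 8, 9 and 10, and 49 had that of ALDH1A3, low in fetuses 1, 2, 8, 9 and 10. CYP26B1 was another gene of the pathway with such a step, with 396, 618, 157, 0 and 153 counts in fetuses 1 to 5 and 1, 0 and 1 counts in fetuses 8, 9 and 10, a pattern that 66 genes had. Of 500 such genes tested in the liver, 27.2% were called on the linear term, 38.6% on the smooth curve and 58% between transfer groups. Of the other genes tested there, 1.46%, 0.671% and 2.47% were called. The part of this feature of the liver counts in the call of STRA6 was not tested.

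**Figure D4:**
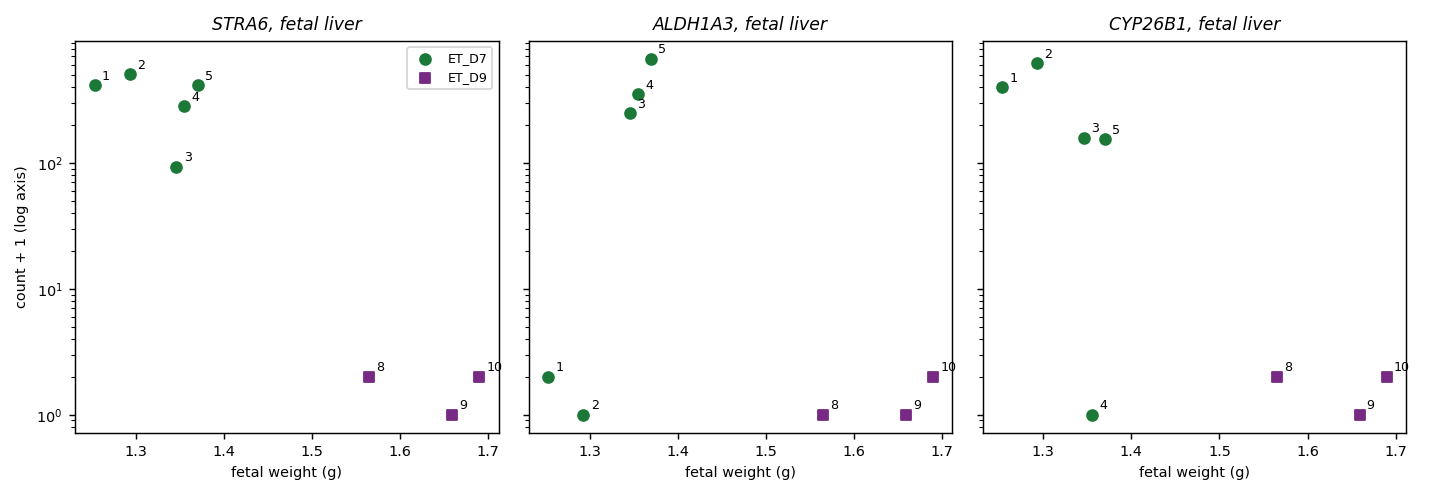
Counts of STRA6, ALDH1A3 and CYP26B1 in the 8 liver libraries against fetal weight in g, as count + 1 on a log axis, with circles for ET_D7, squares for ET_D9 and the fetus number beside each point. All 3 genes had at most 1 count in fetuses 8, 9 and 10, and the ET_D7 fetuses were split for ALDH1A3 and CYP26B1.

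CYP26B1 was called in the liver both along weight (-2.67 per 0.1 g, SE 0.51, adjusted p = 0.0364, edgeR) and between transfer groups (adjusted p = 0.0391, edgeR). Like STRA6, it passed the count filter through its ET_D7 livers alone. LRAT, which esterifies retinol for storage, rose along weight (0.37 per 0.1 g, SE 0.08, adjusted p = 0.0454, edgeR), and LRAT was chosen after its values were seen. It was at 5.01, 4.79, 5.53, 3.03 and 5.54 CPM in the ET_D7 livers and at 12.0, 11.2 and 13.9 CPM in the ET_D9 livers (log2 fold change 1.25, SE 0.25, adjusted p = 0.0274, edgeR). All ET_D9 livers were above all ET_D7 livers. These were the 2 of 35 pathway genes (5.71%) called in the liver on either test, beside 2.23% of all genes along weight and 4.14% between transfer groups.

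CRABP1 in the liver, at 7.51 to 10.0 CPM in ET_D9 and 2.06 to 5.33 CPM in ET_D7, was higher in ET_D9 by a log2 fold change of 0.98 (SE 0.33) that missed the threshold (adjusted p = 0.149, edgeR). Its slope, 0.26 per 0.1 g (adjusted p = 0.232, edgeR), turned to -0.17 (adjusted p = 0.916, edgeR) with the transfer group as a covariate. RBP4 and ALDH1A1, both also known in hepatocytes, had transfer groups that overlapped.

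In the heart, STRA6 was at 3.72 to 14.2 CPM in the 5 ET_D7 fetuses and 1.99 to 3.03 CPM in the 4 ET_D9 fetuses. The log2 fold change was -1.78 (SE 0.41, adjusted p = 0.0647, edgeR) and the slope -0.52 per 0.1 g (SE 0.15, adjusted p = 0.0604, edgeR). Without fetus 3 both passed the threshold, at -1.61 (adjusted p = 0.0299, edgeR) and -0.47 (adjusted p = 0.0311, edgeR), while the share of all genes called in the heart went from 0.0492% to 17.9% and from 6.78% to 24.8%. With the transfer group as a covariate, a model that called 0 of 16250 heart genes, the slope was -0.11 (SE 0.25, adjusted p = 0.891, edgeR). CRABP1 was at 41.6 to 151 CPM in ET_D7 and 35.1 to 57.5 CPM in ET_D9 (-1.01, SE 0.38, adjusted p = 0.145, edgeR). The hearts of fetuses 1, 2 and 3 were the 3 highest for both genes.

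The same 3 heart libraries were also the highest for genes of the thymus, parathyroid and pharyngeal region, a list written after heart values had been seen. Its 10 genes summed to 17.8, 32.1 and 97.2 CPM in fetuses 1, 2 and 3 and to 5.60 to 8.38 CPM in the other 6. The list is not particular to that region in these data, since it summed to 165 to 271 CPM in the libraries labelled gonads. In fetus 3 all 10 were detected, and PTH, parathyroid hormone, had 955 counts there and 0 in each of the other 8 hearts. HOXA3, a homeobox gene of the pharyngeal arches, was at 8.91, 21.3 and 25.0 CPM in fetuses 1, 2 and 3 and at 0.844 to 2.75 CPM in the others. PTH, GCM2, PRSS16, FOXN1 and PAX1 were all at 0 in fetuses 1 and 2, where HOXA3 and EYA1 (6.47 and 7.57 CPM) made up most of the sum. The hearts of fetuses 1, 2 and 3 were highest for the mesonephros and metanephros genes as well, a list that also holds EYA1. These genes summed to 17.5, 22.2 and 22.0 CPM there and to 13.7 to 16.2 CPM in the others. The shared gene EYA1 was at 6.47, 7.57 and 8.18 CPM in fetuses 1, 2 and 3 and at 5.49 CPM in fetus 4. SIX2 was at 0.534, 4.93 and 2.40 CPM in fetuses 1, 2 and 3, against at most 0.209 CPM in the others. The part of tissue of either kind in the levels of STRA6, CRABP1 and ALDH1A3 in the heart was not tested.

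**Figure D5:**
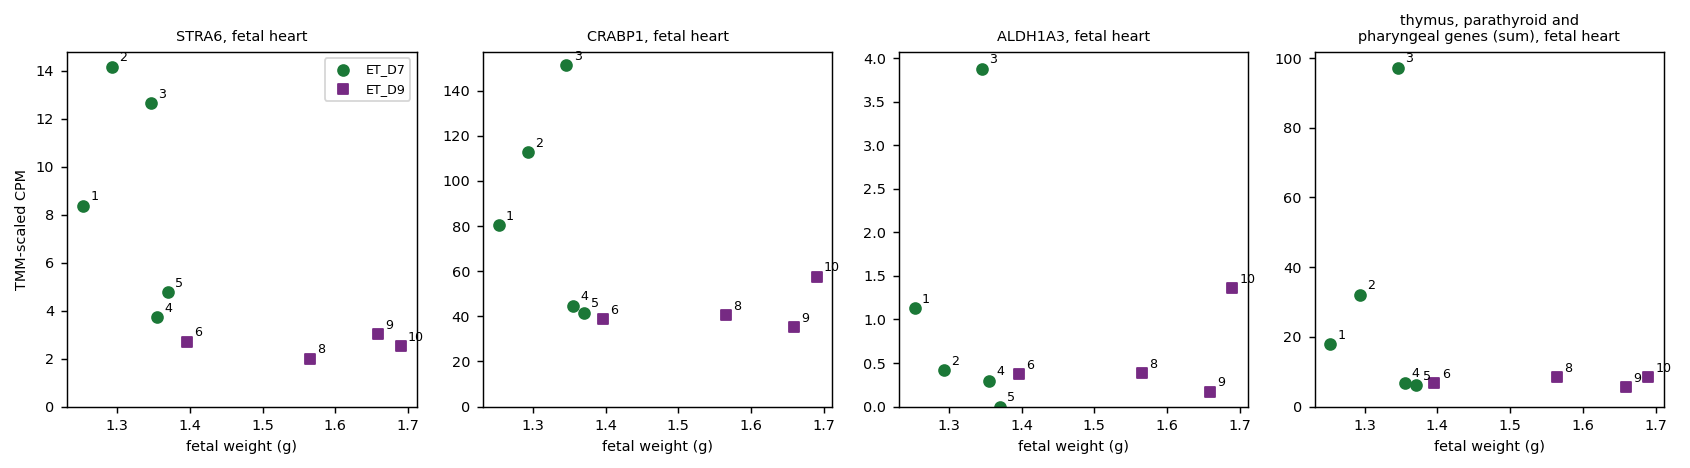
STRA6, CRABP1, ALDH1A3 and the sum of 10 thymus, parathyroid and pharyngeal genes in the 9 heart libraries, in TMM-scaled CPM on linear axes against fetal weight in g, with the fetus number beside each point (circles ET_D7, squares ET_D9). Fetuses 1, 2 and 3 are the highest for STRA6, CRABP1 and the sum, and fetus 3 is the highest for ALDH1A3 at 3.88 CPM.

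Of 36 other pathway genes tested in the heart, 2 (5.56%) were called along weight, beside 6.78% of all genes, and both were chosen after their values were seen. RXRG, a partner of the RARs, was at 17.9, 18.6, 6.64, 14.9 and 26.8 CPM in fetuses 1 to 5 and at 11, 8.13, 4.43 and 3.15 CPM in fetuses 6, 8, 9 and 10. It fell by 0.55 per 0.1 g on the log2 scale (SE 0.13, adjusted p = 0.0419, edgeR). ADH5 rose by 0.20 per 0.1 g (SE 0.05, adjusted p = 0.0455, edgeR). With counts scaled to library totals alone, 0 genes of 16250 were called along weight in the heart, where the main scaling called 1101. The number was also 0 with the transfer group as a covariate and on leaving out any 1 of fetuses 1, 2, 4, 5, 8 and 10, so the calls of RXRG and ADH5 were lost each time.

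In the gonads the 10 genes varied little with weight, with slopes from -0.13 to 0.02 per 0.1 g. ALDH1A1 was at 10.1, 17.2, 20.2 and 15.4 CPM in the ET_D7 fetuses 1, 3, 4 and 5 and at 9.93, 9.33, 9.58, 12.8 and 9.91 CPM in the ET_D9 fetuses 6 to 10. The groups overlapped through fetus 1, and the log2 fold change was -0.59 (SE 0.19, adjusted p = 0.151, edgeR). Without fetus 1 it was -0.77 (adjusted p = 0.0335, edgeR), while the share of all genes called in the gonads went from 0.354% to 1.73%. RARG differed by -0.37 (SE 0.14, adjusted p = 0.192, edgeR).

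In maternal blood the log2 fold change between transfer groups was 0.37 for RARA (SE 0.14, adjusted p = 0.601, edgeR), 0.50 for RARB (SE 0.22, adjusted p = 0.641, edgeR) and -1.38 for ALDH1A1 (SE 0.63, adjusted p = 0.653, edgeR). ALDH1A1 was at 1.99 and 2.32 CPM in the blood of the heifers carrying fetuses 2 and 5 and at most 0.736 CPM in the others. In the same 2 libraries the 6 genes listed for cardiomyocytes summed to 3541 and 1184 CPM, against at most 18.4 CPM in the other 8. Only 4 and 3 of the 6 were detected there. The tissue that this RNA came from and its part in the level of ALDH1A1 were not tested. Without these 2 libraries the log2 fold change of ALDH1A1 was 0.017 (SE 0.54, adjusted p = 0.999, edgeR). Blood libraries fell into 5 with 40516154 to 40812354 counts and 5 with 26602415 to 30393051. Mean RARA was 359 CPM in ET_D7 and 406 CPM in ET_D9 in the deeper libraries, and 332 and 502 CPM in the shallower ones. Mean RARB was 13.6 and 19.2 CPM in the deeper and 12.4 and 16.7 CPM in the shallower libraries. Mean RXRA was 150 and 134 CPM in the deeper and 125 and 185 CPM in the shallower libraries, so its groups stood in opposite order.

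The spread between fetuses, as the SD in percent of the mean, had a median of 23.9% (heart), 21.2% (gonads), 42.5% (liver) and 24.5% (blood) over the members tested. The median over all tested genes was 24.4%, 21.0%, 31.7% and 20.03%. In the liver, STRA6 was at 98.4%, RARG at 94.0% (on low counts, 0 to 89 per library), RARB at 35.6%, RBP4 at 31.9% and RARA at 17.7%.

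For each gene the 2 whose log2 levels were most like it over the 26 organ libraries were sought by Pearson's r among 19634 other genes. These values describe libraries that share organ, kit and scaling. The genes most like ALDH1A2 were KCTD1 (r = 0.99) and NCAM1 (r = 0.99), those most like RARB were TMED8 (r = 0.99) and TLCD3A (r = 0.98), and those most like RARA were Entrez 112446406, which has no symbol (r = 0.99), and MVP (r = 0.98). RBP4 was followed by DGAT2 and APOA1 (r = 0.99 each), the latter an apolipoprotein of the liver. CRABP1 was followed by PARD6G (r = 0.98) and MEST (r = 0.97), STRA6 by LARGE2 (r = 0.96) and NHS (r = 0.95), RXRA by NXF1 and NMRAL1 (r = 0.99 each), RARG by WDR17 (r = 0.96) and PEDS1 (r = 0.95), and ALDH1A1 by EGFLAM (r = 0.95) and C1QTNF12 (r = 0.94). ALDH1A3 had the lowest best value of the 10, with LOC618289 (r = 0.91) and LOC112449281 (r = 0.90).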

How the data were processed

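RNA of the heart, gonads and liver and of maternal blood was sequenced in 36 libraries. The authors removed adapters and low-quality bases with Trimmomatic, aligned reads to the bovine genome (assembly ARS-UCD1.3) by STAR 2.7.0b and deposited whole-number counts per gene made with featureCounts (Subread 2.0.3), after quality checks with FastQC 0.11.9. Options for strand, multi-mapping reads and read pairs are not given in the sources used here, so values of overlapping genes and of genes with near-identical copies are uncertain. From the deposited counts, 31630 of 35092 Entrez identifiers were matched to RefSeq symbols.

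Groups came from the sample labels. Organ differences were fitted over the 26 organ libraries together, on genes with at least 1 count in them. Slopes with weight and transfer groups were fitted within each tissue, on genes that reached 10 counts in 4 or more libraries. All main tests were edgeR 4.0.16 quasi-likelihood tests (R 4.3.3) with TMM scaling and a Benjamini-Hochberg adjusted p-value under 0.05, and DESeq2 1.42.0 was an alternative. The scripts were tested on simulated data. Levels are CPM of TMM-scaled totals, for the organs over 26 libraries and for blood over its 10.

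Same-numbered libraries come from 1 fetus, so they are paired. Deviations from the organ means correlated by a median of 0.04 between heart and gonads of the same fetus, 0.02 between heart and liver and 0.01 between gonads and liver.

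Named genes were the 10 members, the up to 3 pathway genes of each role with the highest mean CPM over the organs, every CYP26 gene, RDH10 and DHRS3, and the 2 genes most like each member. The values of 2 pathway genes that this rule names are not reported here. The members and lists were chosen with earlier results of these data known. Coordinates and sequences are not given here.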

Additional observations from a re-analysis of the deposited data

Results flagged for a closer look

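Of the results, 6 stood apart, 5 of them as a single library far from the others of its group by Dixon's test at the 95% level. Chance alone sets apart about 1 in 20 groups, and 37 groups were tested. ALDH1A3 in the heart of fetus 3 was at 3.88 CPM, with the next heart at 1.36 CPM. This is the heart library with 97.2 CPM of thymus, parathyroid and pharyngeal genes, and their part in it was not tested. RARB in the liver of fetus 3 was at 25.3 CPM, with the next liver at 14.0 CPM. RARA and RARG in the blood of the heifer carrying fetus 7 were at 603 and 158 CPM, with the next libraries at 457 and 109 CPM, so both receptors were highest in the same library. STRA6 in the blood of the heifer carrying fetus 4 was at 0.370 CPM (10 counts), with the next at 0.0490 CPM (2 counts) and all others at 0. Counts this low lie near the limit of detection, where the 95% level of the test need not hold.

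The sixth is the slope of STRA6 with fetal weight, which differed between the organs (adjusted p = 0.000208, edgeR's quasi-likelihood test). It was -2.58 per 0.1 g in the liver and -0.52 per 0.1 g in the heart. Without the liver the test was at an adjusted p = 0.334 (edgeR), and called 0.0108% of all genes.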

How the results depend on the processing

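Fetal weight and transfer group cannot be told apart, and the liver counts hold steps to at most 2 counts whose origin was not tested. Depth limits levels below the value of 3 counts, and an adjusted p-value that missed the threshold does not show equal levels. Several alternatives were chosen after seeing the data: scaling to library totals with and without mitochondrially encoded genes, leaving out the heart library of fetus 3 or the livers of fetuses 8 to 10, the slope difference over heart and gonads alone, the depth class in blood, and blood without the libraries of fetuses 2 and 5.

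The number of the 10 genes called between heart and gonads was 8, and 5 when a log2 fold change above 1 was also required. It was 7 to 9 under the other alternatives. The share of all genes called was 46.6%, and 29.5% with the fold change required. It ran from 41.7% to 58.8% under the other alternatives. Directions turned in 5 cases: ALDH1A3 in heart against gonads, 0.72 and not called, became -0.13 without the heart of fetus 3 and -0.12 with library totals, RXRA in heart against gonads became -0.32 with library totals, the liver slope of CRABP1 became -0.17 with the transfer group as a covariate, and ALDH1A1 between transfer groups in blood became 0.017 without the libraries of fetuses 2 and 5. With library totals the median of all genes moved to -1.07 for heart against gonads and 0.91 for gonads against liver, and without mitochondrially encoded genes to -0.55 and 0.59. DESeq2 size factors moved it to -0.13 for both organs against the liver. RXRA in heart against gonads was not called with totals without mitochondrially encoded genes (0.30, adjusted p = 0.106, edgeR), and ALDH1A1 in gonads against liver was called with library totals (1.24, adjusted p = 0.0402, edgeR). ALDH1A2 in heart against gonads ran from -1.47 to -0.39 and was not called with DESeq2 size factors, TMM without mitochondrially encoded genes, the stricter filter, the block, a fold threshold or without the livers of fetuses 8 to 10. RARA in heart against liver was not called without the livers of fetuses 8 to 10 (0.41, adjusted p = 0.0515, edgeR). The causes were not tested.

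With the fetus as a replicate block, 7, 8 and 7 of the 10 genes were called for heart against liver, gonads against liver and heart against gonads (9, 9 and 8 without it). Over all genes the block brought the share called from 58.6%, 64.4% and 46.6% to 48.9%, 53.4% and 41.7%. The calls of RARA, ALDH1A3 and ALDH1A2 that it lost are given with the results, it changed no other call, and the paired test of the slope of STRA6 had an adjusted p = 0.00757 (edgeR).

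Within tissues, the DESeq2 test called 1 gene along weight and 1 between transfer groups in the heart, STRA6 both times (adjusted p = 0.00966 and 0.00111, DESeq2), and it called 18.9% and 13.3% of all genes there. Leaving out each fetus gave 0 to 2 genes along weight in the heart (2 without fetus 3), where the number over all genes ran from 0 to 3947. Between transfer groups it gave 0 to 1 in the heart (1 without fetus 3) and in the gonads (1 without fetus 1). The numbers over all genes there ran from 0 to 2846 and from 0 to 386. For weight in the liver it gave 0 to 1 (0 without fetus 9 or 10), with 25 to 740 over all genes. Along weight in the liver, 0 genes were called with the transfer group as a covariate, out of all 16605 tested. A filter of 1 count in 1 library gave 2 genes on the smooth curve in the liver, STRA6 and ALDH1A3. The slope difference over heart and gonads alone called 0 of the 10 genes, and 2 of all 18503 tested (0.0108%, beside 6.2% in the main test). The call of STRA6 between transfer groups in the liver held in all 14 alternatives, at adjusted p-values from 1.58e-13 to 0.00267 (edgeR and DESeq2). All 14 used the same deposited counts, so none bears on the steps to at most 2 counts.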
